A study of Mus musculus with 9 samples.

Results

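The thalamic neuron markers described here are 10 genes, Prkcd, Ramp3, Rgs16, Tnnt1, Lef1, Plekhg1, Synpo2, Slitrk6, Calb2 and Tcf7l2, found by symbol among the 55335 genes of a table of expression values in mouse brain. All 10 were found, and all 10 passed the filter on low values that left 15997 genes for testing. The values are FPKM, counts of fragments scaled by the length of the gene and the size of the library. This scaling does not bring the libraries to the same total. RNA came from tissue described as substantia nigra, the midbrain region whose dopaminergic neurons are lost in Parkinson disease, in 3 groups of 3 libraries. The MPTP plus exercise group, called running mice below, received MPTP hydrochloride in saline by intraperitoneal injection at 20 mg/kg, 2 times a week for 5 weeks, and had a voluntary running wheel for 2 months after the first injection. The MPTP group received the same injections with no wheel mentioned. The vehicle group received saline 2 times a week for 5 weeks. MPTP is a toxin that, once converted in the brain, damages dopaminergic neurons. Neither strain, sex nor age is given in the sources used here, and the text speaks of 3 mice per group without saying that each library is 1 mouse.

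The thalamus lies in front of and above the substantia nigra and relays sensory and motor signals to the cortex through excitatory neurons that use the vesicular glutamate transporter Slc17a6. Its nuclei differ in gene use: Prkcd, Ramp3, Rgs16 and Tnnt1 are known from relay nuclei, Calb2 from midline nuclei, and the transcription factors Tcf7l2 and Lef1 from thalamic neurons at large. None of these genes is used by the thalamus alone. Tcf7l2 is also made by oligodendrocytes as they mature, Lef1 by endothelial cells of brain vessels, Synpo2 by smooth muscle, Prkcd by immune cells and Calb2 by interneurons and some midbrain neurons.

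Libraries of 1 group were far apart in the thalamic markers, and the groups overlapped for every one of the 10. Most of the markers were high in vehicle replicates 1 and 3, MPTP replicate 3 and running replicate 1, and low in the replicate numbered 2 of each group. MPTP replicate 1 was among the 4 lowest libraries for 5 of the 10. In bulk tissue fewer thalamic cells and less RNA per cell cannot be told apart. The genes that define the labelled tissue were uneven. Th, the rate-limiting enzyme of dopamine synthesis, ranged over the 9 libraries between 1.64 FPKM in MPTP replicate 2 and 15.6 FPKM in vehicle replicate 3. Slc6a3, the dopamine transporter, was listed at 0 in running replicate 2 and reached 14.4 FPKM in MPTP replicate 3. Pitx3, a transcription factor of midbrain dopaminergic neurons, was listed at 0 in 5 of 9 libraries. Of the other dopaminergic genes, Aldh1a1, a retinal dehydrogenase, averaged 34.2 FPKM and Drd2, a dopamine receptor, and Ddc, dopa decarboxylase, 8.20 and 7.31 FPKM. The 7 genes of GABA neurons of the nigra, led by Pvalb, Gad1 and Gad2, summed to 171 to 242 FPKM in running mice, 210 to 249 FPKM in MPTP mice and 180 to 235 FPKM in vehicle mice. In broad measures the libraries had 13413 to 13965 genes at 1 FPKM or more and 29.8% to 32.0% of the FPKM from the mitochondrial genome. The FPKM of all genes summed to 331121 to 344049 in running mice, 326614 to 347524 in MPTP mice and 318416 to 319431 in vehicle mice. Every vehicle library thus had a lower sum than any library of the other groups.

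Among the markers of signalling, Prkcd, a protein kinase C activated by diacylglycerol, varied most. Its level was 26.6, 2.58 and 13.2 FPKM in running replicates 1, 2 and 3, 3.30, 2.93 and 43.4 FPKM in MPTP replicates 1, 2 and 3, and 48.3, 2.40 and 34.0 FPKM in vehicle replicates 1, 2 and 3. Each group thus held at least 1 library near 3 FPKM or below and at least 1 above 25, and the highest vehicle library was 20.1 times the lowest. Ramp3, a membrane protein that changes the ligand choice of the calcitonin receptor-like receptor, was at 23.1, 2.76 and 11.2 FPKM in running replicates 1 to 3, 2.73, 7.29 and 23.5 in MPTP replicates 1 to 3, and 31.9, 4.82 and 21.8 in vehicle replicates 1 to 3. Rgs16, which speeds the shut-off of G protein signals, was at 13.9, 2.15 and 7.53 FPKM in running replicates 1 to 3, 2.56, 3.55 and 19.6 in MPTP replicates 1 to 3, and 25.2, 2.98 and 16.5 in vehicle replicates 1 to 3. For these 3 genes vehicle replicate 1 was the highest library and MPTP replicate 3 the second.

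**Figure D1:**
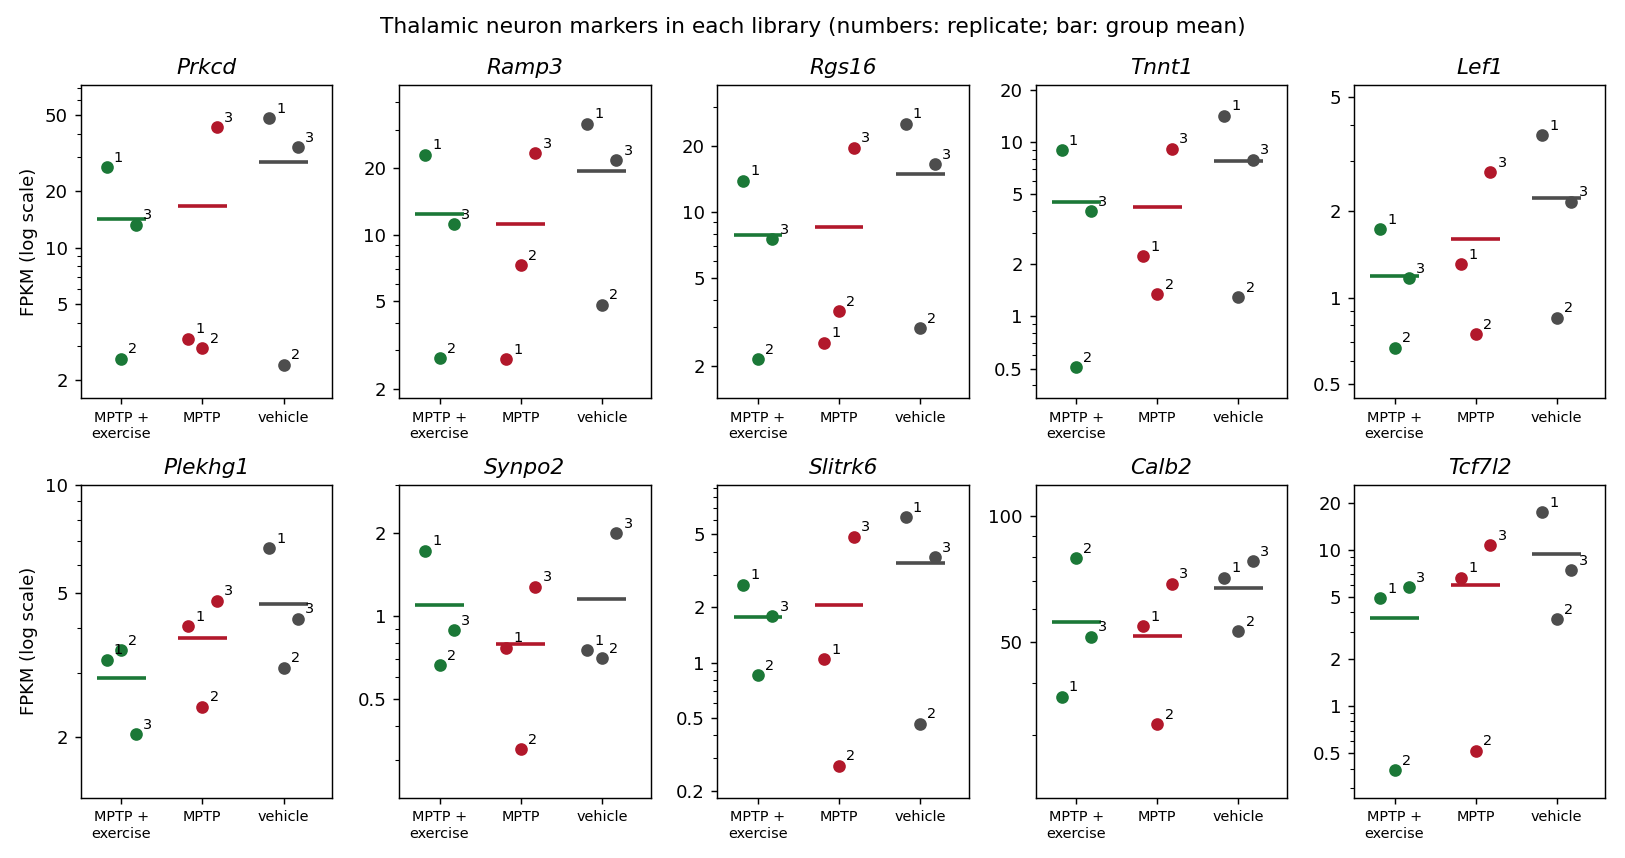
Level of each of the 10 thalamic markers (FPKM, log scale) in the 3 libraries of running, MPTP and vehicle mice, with the replicate number beside each point and a bar at the group mean. For Prkcd the points reach between 2.58 and 26.6 in running mice, 2.93 and 43.4 in MPTP mice and 2.40 and 48.3 in vehicle mice, and the groups overlap in all 10 panels.

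Genes of the cytoskeleton and cell surface followed the same libraries to different degrees. Tnnt1, the troponin T of slow skeletal muscle, was at 8.97, 0.508 and 4.01 FPKM in running replicates 1 to 3, 2.21, 1.34 and 9.17 in MPTP replicates 1 to 3, and 14.2, 1.29 and 7.93 in vehicle replicates 1 to 3. Slitrk6, a membrane protein with leucine-rich repeats that acts in neurite growth, was at 2.66, 0.854 and 1.79 FPKM in running replicates 1 to 3, 1.04, 0.274 and 4.86 in MPTP replicates 1 to 3, and 6.23, 0.463 and 3.76 in vehicle replicates 1 to 3. Both were highest in vehicle replicate 1, as the signalling genes were. Plekhg1, an exchange factor for small GTPases, had a narrower range, with 3.27, 3.48 and 2.03 FPKM in running replicates 1 to 3, 4.06, 2.42 and 4.77 in MPTP replicates 1 to 3, and 6.68, 3.11 and 4.25 in vehicle replicates 1 to 3. Synpo2, an actin-binding protein, was lowest on average among the 10. It was at 1.73, 0.663 and 0.891 FPKM in running replicates 1 to 3, 0.769, 0.329 and 1.28 in MPTP replicates 1 to 3, and 0.751, 0.703 and 2.0 in vehicle replicates 1 to 3. For Synpo2 vehicle replicate 1 was among the 4 lowest libraries, while vehicle replicate 3 and running replicate 1 were the highest.

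Calb2, calretinin, a calcium-binding protein, had the highest mean level of the 10, 58.5 FPKM over 9 libraries, and the smallest fold between libraries, 2.49. It was at 37.1, 79.4 and 51.6 FPKM in running replicates 1 to 3, 54.6, 31.9 and 69.0 in MPTP replicates 1 to 3, and 71.4, 53.2 and 78.2 in vehicle replicates 1 to 3. Its highest library, running replicate 2, was the lowest for Rgs16, Tnnt1, Lef1 and Tcf7l2.

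Lef1 and Tcf7l2 are transcription factors of 1 family that bind beta-catenin and carry Wnt signals to DNA. Tcf7l2 had the widest fold between libraries, 44.6, with 4.92, 0.390 and 5.76 FPKM in running replicates 1 to 3, 6.62, 0.521 and 10.7 in MPTP replicates 1 to 3, and 17.4, 3.60 and 7.38 in vehicle replicates 1 to 3. Lef1 was at 1.73, 0.669 and 1.17 FPKM in running replicates 1 to 3, 1.31, 0.746 and 2.74 in MPTP replicates 1 to 3, and 3.68, 0.849 and 2.16 in vehicle replicates 1 to 3. Both were highest in vehicle replicate 1 and lowest in running replicate 2. MPTP replicate 1 was near the other low libraries for Prkcd but among the 4 highest for Tcf7l2, at 6.62 FPKM. The exons of Lef1 share 1208 bases, 13.7% of their length, with an antisense gene, and those of Rgs16 and Ramp3 share 236 and 101 bases with genes on the other strand. The strand setting of the counting is not given, so reads of such pairs cannot be told apart, though the mean FPKM of the antisense gene of Lef1 was 0.599 and those of the other pair of genes 0.0327 and 0.0650.

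Since most of the markers were high and low in the same libraries and 2 of them are TCF/LEF factors, the promoters of the members were read for the core of the TCF/LEF motif, CTTTGA or CTTTGT, on either strand. The 250 bases before the start were taken from RefSeq (GRCm38.p6), where 9 of the 10 genes had an entry, with 14 start sites in all. A core lay in 4 of these 14 windows, against 27.6% of all 32851 windows, and in 3 of the 9 genes, against 30.8% of 27025 genes. The share in the markers was thus near the background. All 4 windows that hold a core are shown, and they belong to Prkcd, Tcf7l2 and Lef1. Capitals mark the core, and TCAAAG and ACAAAG are its reverse complements. The first Prkcd window is chr14:30626209-30626458 on the minus strand, with the core 139 bases before the start, and the second, of an inner start, is chr14:30610311-30610560 on the same strand, with the core 241 bases before it. The Tcf7l2 window, chr19:55895071-55895320 on the plus strand, has it 14 bases before an inner start. The Lef1 window, chr3:131156044-131156293 on the plus strand, has 3 cores, at 180, 146 and 120 bases before an inner start.
Prkcd, first start: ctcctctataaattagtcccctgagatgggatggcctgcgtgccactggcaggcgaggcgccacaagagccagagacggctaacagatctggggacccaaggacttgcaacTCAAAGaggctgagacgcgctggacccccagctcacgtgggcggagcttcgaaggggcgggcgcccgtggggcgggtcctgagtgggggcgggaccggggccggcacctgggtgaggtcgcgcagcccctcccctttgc
Prkcd, inner start: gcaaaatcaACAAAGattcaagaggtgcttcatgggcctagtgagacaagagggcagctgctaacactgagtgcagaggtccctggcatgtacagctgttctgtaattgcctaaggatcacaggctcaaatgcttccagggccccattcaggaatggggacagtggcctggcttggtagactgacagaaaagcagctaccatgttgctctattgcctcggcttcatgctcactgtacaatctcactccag
Tcf7l2, inner start: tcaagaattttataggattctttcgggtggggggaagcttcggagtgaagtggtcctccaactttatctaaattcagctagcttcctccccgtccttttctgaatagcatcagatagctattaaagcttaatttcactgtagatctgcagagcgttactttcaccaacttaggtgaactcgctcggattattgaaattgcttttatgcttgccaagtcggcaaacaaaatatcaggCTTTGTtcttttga
Lef1, inner start: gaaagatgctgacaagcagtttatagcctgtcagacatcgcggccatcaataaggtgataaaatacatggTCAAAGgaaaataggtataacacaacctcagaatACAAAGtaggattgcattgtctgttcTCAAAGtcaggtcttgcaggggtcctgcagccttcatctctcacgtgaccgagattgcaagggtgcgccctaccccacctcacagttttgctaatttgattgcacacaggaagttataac
A match is a run of letters, not a site shown to be bound.

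The genes lie on 8 chromosomes of GRCm38 and are protein coding in GENCODE M21. On the plus strand lie Ramp3 (ENSMUSG00000041046, chromosome 11, 6658521 to 6677475), Rgs16 (ENSMUSG00000026475, chromosome 1, 153740349 to 153745468), Lef1 (ENSMUSG00000027985, chromosome 3, 131110471 to 131224356), Plekhg1 (ENSMUSG00000040624, chromosome 10, 3740364 to 3967303) and Tcf7l2 (ENSMUSG00000024985, chromosome 19, 55741820 to 55933654). On the minus strand lie Prkcd (ENSMUSG00000021948, chromosome 14, 30595354 to 30626210), Tnnt1 (ENSMUSG00000064179, chromosome 7, 4504570 to 4516382), Synpo2 (ENSMUSG00000050315, chromosome 3, 123076519 to 123236149), Slitrk6 (ENSMUSG00000045871, chromosome 14, 110748580 to 110755149) and Calb2 (ENSMUSG00000003657, chromosome 8, 110137502 to 110168210).

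Counted over the 10 markers, vehicle replicate 1 was the highest library for 8, Synpo2 and Calb2 being the exceptions. MPTP replicate 3 and vehicle replicate 3 were among the 4 highest libraries for all 10, and running replicate 1 for 7. MPTP replicate 2 and vehicle replicate 2 were among the 4 lowest for all 10, and running replicate 2 for 8. Within the MPTP group all 10 markers were higher in replicate 3 than in replicate 1 and in replicate 2, and within the vehicle group all 10 were higher in replicates 1 and 3 than in replicate 2. Within running mice 8 of 10 were higher in replicate 1 than in replicate 2, Plekhg1 and Calb2 being the exceptions. The median ratio of replicate 1 to replicate 2 over the 10 markers was 4.78 in running mice, 1.69 in MPTP mice and 5.73 in vehicle mice.

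**Figure D2:**
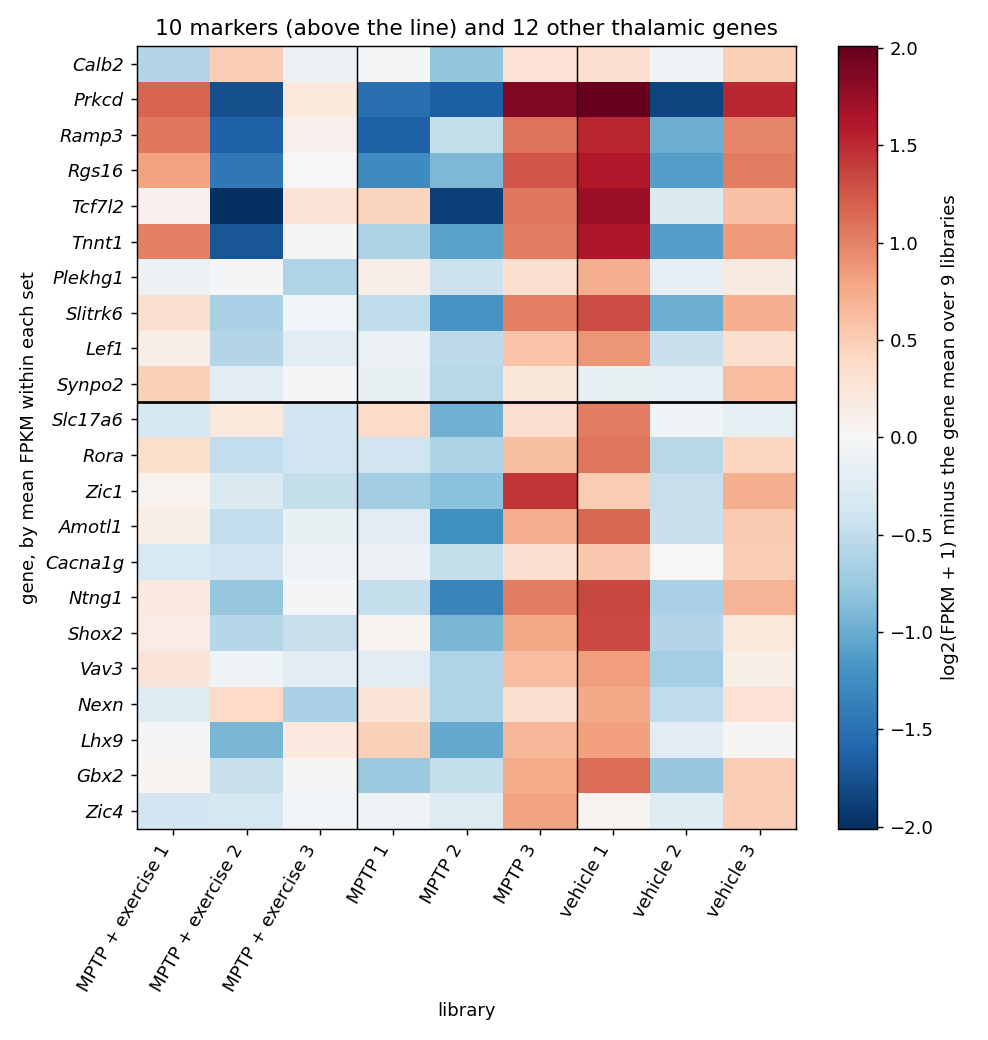
Log2(FPKM + 1) of each gene minus its mean over 9 libraries, for the 10 markers above the line and 12 other thalamic genes below it, in the libraries of running, MPTP and vehicle mice. Vehicle replicate 1 and MPTP replicate 3 are red for most rows and MPTP replicate 2 and vehicle replicate 2 are blue, while Calb2 departs from the other markers in running replicates 1 and 2.

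The likeness of each marker to the other 9 was described by Pearson r of log2(FPKM + 1) over the 9 libraries, which share their tissue and depth across genes. It was 0.97 for Prkcd, Rgs16, Tnnt1 and Slitrk6, 0.96 for Lef1, 0.89 for Ramp3 and 0.81 for Tcf7l2. Synpo2 and Plekhg1 were less alike, at 0.64 and 0.63, and Calb2 least, at 0.32. Ratios between markers were not fixed. Prkcd was 1.91, 1.20 and 1.76 times Rgs16 in running replicates 1 to 3, 1.29, 0.826 and 2.21 times in MPTP replicates 1 to 3, and 1.92, 0.806 and 2.06 times in vehicle replicates 1 to 3. The ratio was 1.76 to 2.21 in the 5 libraries with the most Prkcd and 0.806 to 1.29 in the other 4. Prkcd enters both this split and the ratio, so the split favours such a difference. Tcf7l2 stood at 2.0 times Prkcd in MPTP replicate 1 and 1.5 times in vehicle replicate 2, and at 0.151 to 0.435 times in the other 7 libraries.

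Among 13712 other genes averaging 1 FPKM or more, the 6 most like the mean of the 10 markers over the 9 libraries were Ppp4r4 (Pearson r 0.978), Ntng1 (0.978), Ptpn4 (0.977), Abhd12b (0.972), Shisal1 (0.962) and Gjc1 (0.961). Ntng1, netrin G1, is an axon surface protein of thalamic neurons. It also stands in a list of other thalamic genes described below, and was at 7.5, 3.35 and 6.28 FPKM in running replicates 1 to 3, 4.29, 1.95 and 14.1 in MPTP replicates 1 to 3, and 17.7, 3.70 and 10.9 in vehicle replicates 1 to 3. Abhd12b, of mean level 1.26 FPKM, was at 1.14, 0.0091 and 0.523 FPKM in running replicates 1 to 3, 0.0197, 0.0555 and 2.95 in MPTP replicates 1 to 3, and 3.67, 0.0196 and 2.94 in vehicle replicates 1 to 3. Both genes were high in MPTP replicate 3 and vehicle replicates 1 and 3.

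To ask what the toxin changed, MPTP mice were set against vehicle mice. All 10 markers had a lower mean log2 level in MPTP than in vehicle mice, with a median log2 fold change of -0.62 (range -0.99 to -0.24) beside a median of -0.006 over all genes tested, of which 51.8% were below 0 and 48.1% above. None of the 10 passed (limma with Benjamini-Hochberg adjustment over all genes, each adjusted p = 0.991), 0 of 10 had an unadjusted p under 0.05, and the smallest unadjusted p was 0.230 for Calb2. Over all genes 0.0125% were called, 4.09% had an unadjusted p under 0.05 and 9.43% did not overlap between the groups; none of the 10 markers was among the last. With the replicate number as a block, 3 of all genes were called in the fit of 9 libraries, against 2 without it. In the fit of these groups alone 0 were called with the block and 0 without it, and no marker was called in any of these fits. Calb2 was lower in MPTP than in vehicle mice in each of the 3 same-numbered pairs. Its unadjusted p in the blocked fits was 0.262 over 9 libraries and 0.0188 over these groups alone (limma, adjusted p 0.955 and 0.838), where 5.72% of all genes had an unadjusted p under 0.05. Prkcd averaged 16.5 ± 23.3 FPKM in MPTP mice and 28.2 ± 23.5 FPKM in vehicle mice (SD, n = 3 each), a log2 fold change of -0.99 with a 95% interval of -3.89 to 1.92. It was -0.26 without vehicle replicate 1, -0.38 and -0.45 without MPTP replicates 2 and 1, -0.51 without vehicle replicate 3, -2.13 without MPTP replicate 3 and -2.19 without vehicle replicate 2. Tcf7l2 averaged 5.93 ± 5.10 FPKM in MPTP mice and 9.46 ± 7.13 FPKM in vehicle mice (log2 fold change -0.80, interval -2.80 to 1.20), and was 0.08 on that scale without MPTP replicate 2. Calb2 averaged 51.8 ± 18.7 FPKM in MPTP mice and 67.6 ± 13.0 FPKM in vehicle mice (log2 fold change -0.43, interval -1.18 to 0.32). The intervals were wide enough to hold both a fall and a rise of each of these genes. The median of the 10 became -0.11 without MPTP replicate 2, -0.26 without vehicle replicate 1 and -0.38 without MPTP replicate 1, and -1.25 and -1.26 without MPTP replicate 3 and vehicle replicate 2.

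**Figure D3:**
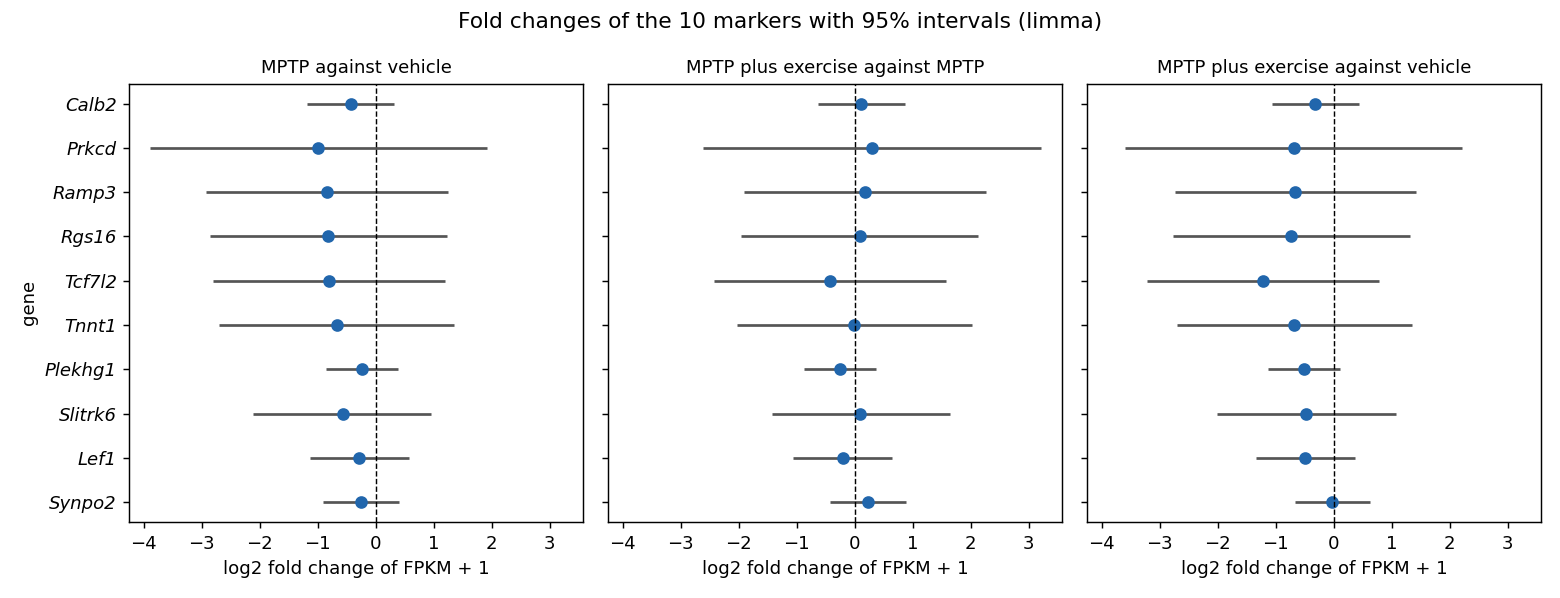
Log2 fold change of FPKM + 1 for each of the 10 markers in the 3 comparisons, with 95% intervals from limma. Every interval crosses 0, and those of Prkcd are the widest, reaching from -3.89 to 1.92 between MPTP and vehicle mice.

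Running mice were set against MPTP mice to ask what wheel running changed. The markers were split, with 6 above 0 and 4 below 0 (Tnnt1, Lef1, Plekhg1 and Tcf7l2), beside 45.7% of all genes above 0 and 54.3% below. Their median log2 fold change was 0.10, ranging from -0.43 for Tcf7l2 to 0.30 for Prkcd. None of the 10 passed (limma adjusted p = 1 for each, 0 of 10 at an unadjusted p under 0.05), and 0% of all genes were called. Over all genes 3.99% had an unadjusted p under 0.05 and 8.02% did not overlap between the groups, with none of the 10 markers among the last. Prkcd averaged 14.1 ± 12 FPKM in running mice and 16.5 ± 23.3 FPKM in MPTP mice (SD, n = 3 each). Its log2 fold change was 0.30 although its mean FPKM was lower in running mice. On the linear scale the MPTP mean came mostly from replicate 3, at 43.4 FPKM. Rgs16 (7.85 FPKM in running and 8.57 in MPTP mice) and Slitrk6 (1.77 and 2.06) also had log2 fold changes above 0 with lower mean FPKM. Tnnt1 had a log2 fold change of -0.01 with a higher mean FPKM in running mice (4.50 and 4.24). The split thus depends on the scale for these genes. Ramp3 averaged 12.4 ± 10.2 FPKM in running mice and 11.2 ± 10.9 FPKM in MPTP mice. The median of the 10 was 0.52 without MPTP replicate 3, 0.37 without running replicate 2 and 0.02 without running replicate 3. It was -0.20 without MPTP replicate 1, -0.34 without MPTP replicate 2 and -0.36 without running replicate 1.

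Set against vehicle, all 10 markers had a lower mean log2 level in running mice (median log2 fold change -0.58, range -1.22 to -0.02), beside 55.3% of all genes below 0 and 44.7% above. The same vehicle libraries serve in this comparison and in that of MPTP mice, and the same MPTP libraries in both comparisons that involve them. None passed (limma adjusted p from 0.762 to 0.994, 0 of 10 at an unadjusted p under 0.05), 0% of all genes were called and 6.54% had an unadjusted p under 0.05, and 15.6% of all genes did not overlap between the groups while none of the 10 markers was among them. Plekhg1 had the smallest p, with 2.92 ± 0.785 FPKM in running mice and 4.68 ± 1.82 FPKM in vehicle mice (SD, n = 3 each; log2 fold change -0.51, 95% interval -1.13 to 0.11, limma unadjusted p = 0.0968, adjusted p = 0.762). Tcf7l2 had the largest difference, at 3.69 ± 2.89 FPKM in running mice and 9.46 ± 7.13 FPKM in vehicle mice (log2 fold change -1.22, interval -3.22 to 0.78). This became -0.49 without running replicate 2, -0.70 without vehicle replicate 1 and -1.70 without vehicle replicate 2, where Prkcd, at -1.89, had a larger one. The median of the 10 became -0.16 without running replicate 2 or vehicle replicate 1, -0.97 without running replicate 1 and -1.27 without vehicle replicate 2.

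The spread within groups set these markers apart in rank from most genes. A wide spread was not theirs alone, since some markers of other tissue also varied within a group. Slc6a3 ranged from 0.0377 to 14.4 FPKM in MPTP mice and Neurod6, of cortex and hippocampus, from 1.43 to 23.5 FPKM in vehicle mice. Ttr, of the choroid plexus, ranged from 18.5 to 924 FPKM in running mice. The SD within groups of log2(FPKM + 1) was 1.88 for Prkcd, 1.35 for Ramp3, 1.32 for Rgs16, 1.31 for Tnnt1 and 1.29 for Tcf7l2, beside a median of 0.157 and a 90th percentile of 0.378 over all genes tested. Prkcd had a larger spread than 99.9% of tested genes, and Slitrk6, at 0.991, than 99.5%. The other 4 were Lef1 at 0.544, Calb2 at 0.477, Synpo2 at 0.410 and Plekhg1 at 0.389, the last above 90.8% of genes. Differences between groups made up 6.77% of the variance of Prkcd and 29.8% of that of Plekhg1, with a median of 10.2% over the 10 markers and 20.9% over all genes tested. With 3 libraries a group the group means differ by sampling alone, so some share of this kind arises without any group effect. These shares are descriptions of 9 libraries and were not tested.

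**Figure D4:**
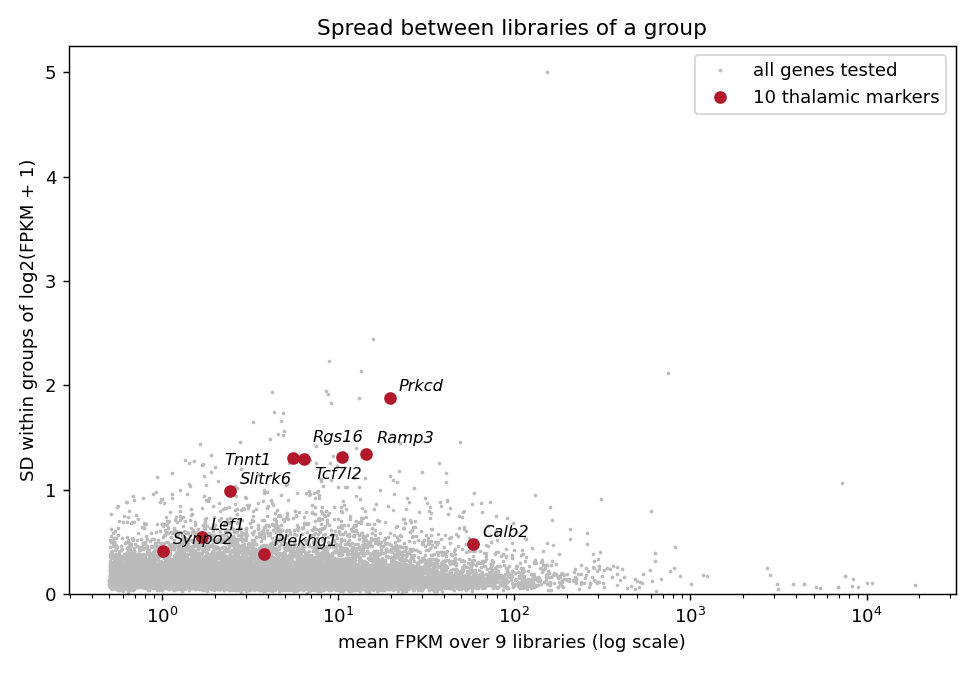
SD within groups of log2(FPKM + 1) against mean FPKM over 9 libraries (log scale), with each tested gene in grey and the 10 markers in red. Prkcd lies at 1.88 and Ramp3, Rgs16, Tnnt1 and Tcf7l2 lie near 1.3, far above the median of 0.157, while Plekhg1, Synpo2, Calb2 and Lef1 lie between 0.389 and 0.544.

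A list of 12 other genes of thalamic neurons, none of them among the 10, also differed between libraries of 1 group. Vehicle replicate 1 was the highest library for 10 of the 12 and among the 4 highest for all 12, as was MPTP replicate 3. MPTP replicate 2 was among the 4 lowest for all 12 and the lowest for 8. Running libraries were less far apart than for the 10 markers: running replicate 1 was among the 4 highest for 7 of the 12 and among the 4 lowest for 5. The mean log2(FPKM + 1) of the 12 was 2.5, 2.16 and 2.28 in running replicates 1 to 3, beside 3.13, 1.73 and 2.65 for the 10 markers. Their summed level was 67.7 to 82.4 FPKM in running mice, 42.2 to 143 FPKM in MPTP mice and 66.7 to 180 FPKM in vehicle mice. Slc17a6, which loads glutamate into vesicles, was at 24.7, 37.1 and 24.0 FPKM in running replicates 1 to 3, 41.9, 15.7 and 40.2 in MPTP replicates 1 to 3, and 66.1, 30.1 and 27.5 in vehicle replicates 1 to 3. In MPTP replicate 1 and running replicate 2 it was high while Prkcd was low, and it is used by other excitatory neurons too. Rora, a nuclear receptor, was at 12.7, 6.67 and 7.20 FPKM in running replicates 1 to 3, 7.16, 5.99 and 15.4 in MPTP replicates 1 to 3, and 21.7, 6.33 and 13.6 in vehicle replicates 1 to 3. Zic1, a zinc finger factor, was highest in MPTP replicate 3, at 26.0 FPKM. None of the 12 passed in any comparison (limma, adjusted over all genes): 0 of 12 had an unadjusted p under 0.05 for MPTP against vehicle and for running against MPTP, and 1 of 12 for running against vehicle. Of the 12, 11 were below 0 for MPTP against vehicle (median log2 fold change -0.34), 8 for running against MPTP (median -0.13) and 12 for running against vehicle (median -0.48).

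Markers of neighbouring tissue also moved between libraries, in other orders. The 8 genes of cortex and hippocampus summed to 129 to 228 FPKM in running mice, 106 to 306 FPKM in MPTP mice and 34.2 to 178 FPKM in vehicle mice. Their lowest library, vehicle replicate 1, was the highest for the thalamic markers, and their highest, MPTP replicate 2, was among the lowest. Other libraries were high or low for both lists. The mean log2(FPKM + 1) of cortical and of thalamic markers was 4.12 and 3.13 in running replicate 1, and 2.95 and 1.73 in running replicate 2. All 8 genes of cortex and hippocampus were above 0 for MPTP against vehicle and for running against vehicle (median log2 fold changes 0.44 and 0.50). The mean log2(FPKM + 1) of these 8 was 1.57, 3.84 and 3.59 in vehicle replicates 1 to 3. It was 2.81, 4.38 and 3.14 in MPTP replicates 1 to 3, and 3.91 in running replicate 3. Only vehicle replicate 1 thus lay below all MPTP and running libraries, and no fit of this list without it is reported here. In both comparisons all 10 thalamic markers were below 0. For running against MPTP 6 of the 8 cortical genes were above 0 (median 0.12). Slc17a7, the vesicular glutamate transporter of cortex, was at 20.9 FPKM in vehicle replicate 1 and 127 FPKM in MPTP replicate 2. The 9 striatal genes summed to 92.1 to 262 FPKM in running mice, 76.8 to 255 FPKM in MPTP mice and 82.9 to 211 FPKM in vehicle mice. They were high in running replicate 2 and MPTP replicate 1, where Prkcd was low, as well as in vehicle replicates 1 and 3, where it was high. All 9 were below 0 for MPTP against vehicle and for running against vehicle (medians -0.22 and -0.24), and 4 of 9 for running against MPTP (median 0.03). None of the cortical or striatal genes passed (limma, 0 at an unadjusted p under 0.05 in any comparison). The 8 choroid plexus genes summed to 21.1 to 945 FPKM in running mice, 950 to 2060 FPKM in MPTP mice and 37.2 to 343 FPKM in vehicle mice, and 0 of the 8 passed in any comparison. At an unadjusted p under 0.05 (limma) there were 7 for MPTP against vehicle, with all 8 above 0 (median 1.72), 4 for running against MPTP, with all 8 below 0 (median -1.13), and 0 for running against vehicle, with 7 above 0 (median 0.62). Over all genes 4.09%, 3.99% and 6.54% were under that p, and 51.8%, 54.3% and 55.3% were below 0, in the same order of comparisons. The 10 dopaminergic genes summed to 51.4 to 85.0 FPKM in running mice, 45.5 to 96.7 FPKM in MPTP mice and 53.8 to 86.0 FPKM in vehicle mice, and none of the 8 tested passed (0 at an unadjusted p under 0.05 in any comparison). The highest of these sums in running mice was that of replicate 2, where Slc6a3 was listed at 0. Aldh1a1 and Drd2 were at 46.8 and 13.0 FPKM in that library, so the sum does not follow the dopamine transporter. The part of these tissues in the levels of the markers was not tested.

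**Figure D5:**
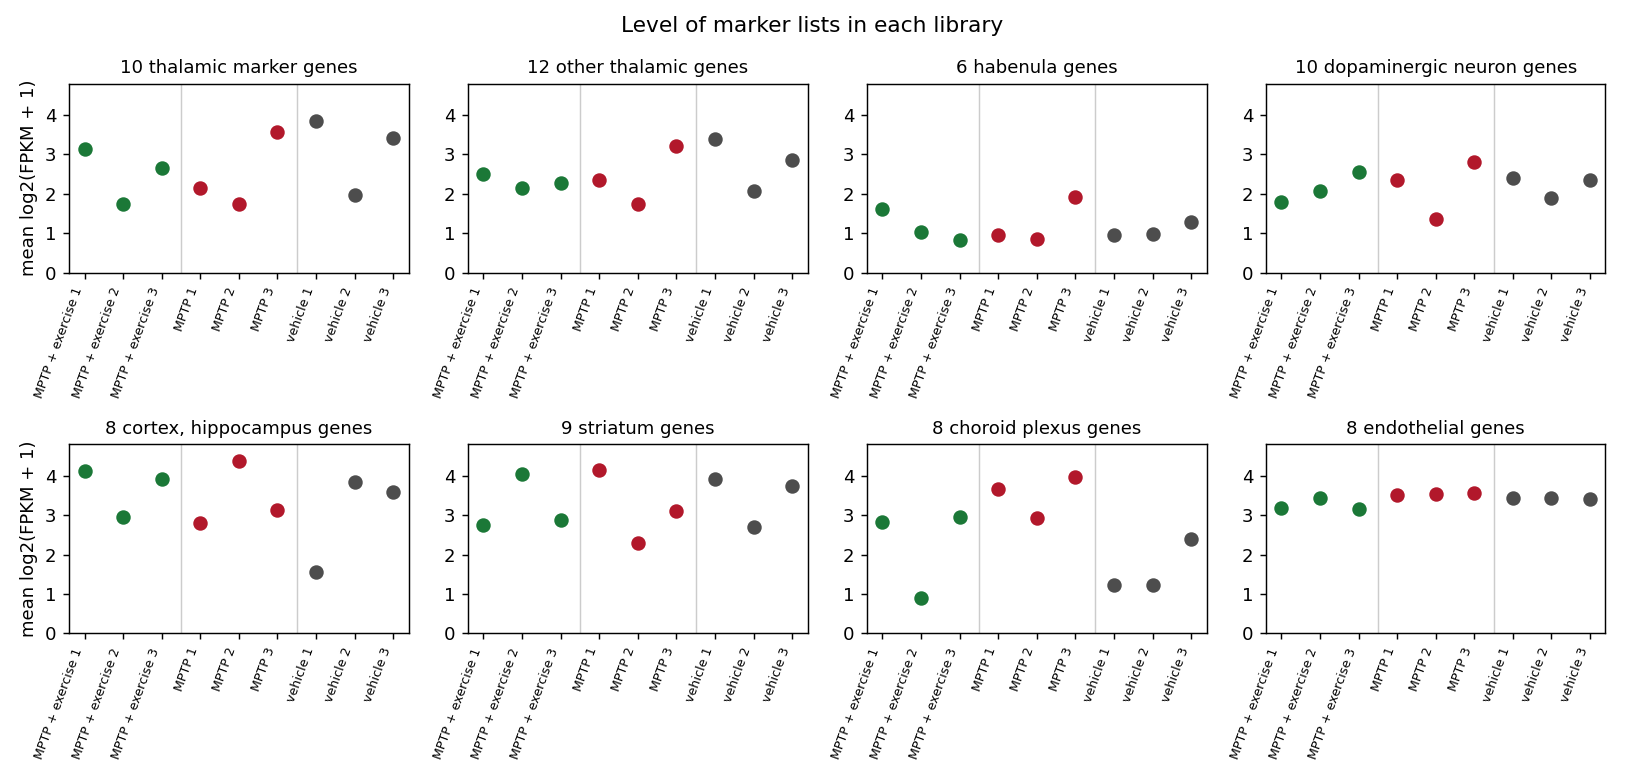
Mean log2(FPKM + 1) over the genes of 8 marker lists in each library of running (green), MPTP (red) and vehicle mice (grey). The thalamic lists are high in vehicle replicates 1 and 3 and MPTP replicate 3, the cortex and hippocampus list is lowest in vehicle replicate 1, and the endothelial list lies between 3.16 and 3.56 in all 9 libraries.

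Lists of the other cell types that use these genes were summed in the same way. The 8 endothelial genes summed to 80.8 to 104 FPKM in running mice, 102 to 112 FPKM in MPTP mice and 95.4 to 97.2 FPKM in vehicle mice. The 8 mural genes summed to 46.8 to 60.2 FPKM in running mice, 60.4 to 68.9 FPKM in MPTP mice and 58.6 to 82.2 FPKM in vehicle mice. Cldn5, Itm2a and Ly6c1 were the endothelial genes with the highest levels. The 6 genes of newly formed oligodendrocytes summed to 71.7 to 107 FPKM in running mice, 78.2 to 98.8 FPKM in MPTP mice and 71.7 to 91.5 FPKM in vehicle mice. The 8 microglial genes summed to 123 to 147 FPKM in running mice, 132 to 177 FPKM in MPTP mice and 119 to 142 FPKM in vehicle mice. None of these 4 lists had a gene listed at 0 in a library or a gene that passed (limma adjusted over all genes; at an unadjusted p under 0.05, 5 of 8 endothelial, 1 of 7 tested mural, 1 of 6 oligodendrocyte and 2 of 8 microglial genes for running against MPTP). At that unadjusted p there were also 2 microglial genes for MPTP against vehicle, and 4 endothelial and 3 mural genes for running against vehicle. Over all genes the share at that p was 3.99% for running against MPTP, 4.09% for MPTP against vehicle and 6.54% for running against vehicle. All 8 endothelial and all 7 tested mural genes were below 0 for running against MPTP (medians -0.27 and -0.30), beside 54.3% of all genes. The part of these cell types in the levels of the markers was not tested.

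The remaining lists gave no calls either. None of the 7 nigral GABA, 2 tested subthalamic, 7 mature oligodendrocyte and 6 astrocyte genes passed in any comparison. At an unadjusted p under 0.05 (limma) there were 1 subthalamic gene for running against vehicle and 1 astrocyte gene each for MPTP against vehicle and for running against MPTP. Mature oligodendrocyte genes summed to 1080 to 1920 FPKM in running mice, 1090 to 1640 FPKM in MPTP mice and 1160 to 1830 FPKM in vehicle mice. Astrocyte genes summed to 335 to 372 FPKM in running mice, 303 to 333 FPKM in MPTP mice and 274 to 413 FPKM in vehicle mice, and subthalamic genes to at most 2.55 FPKM in any library.

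Genes that work with the markers gave no calls. Of 14 genes of the Wnt and TCF/LEF pathway 13 were tested and 0 passed in any comparison (limma; 0, 1 and 1 at an unadjusted p under 0.05 for MPTP against vehicle, running against MPTP and running against vehicle). Their summed level was 107 to 133 FPKM in running mice, 98.1 to 127 FPKM in MPTP mice and 128 to 151 FPKM in vehicle mice. Ctnnb1, beta-catenin itself, was at 68.0, 58.1 and 75.8 FPKM in running replicates 1 to 3, 55.4, 44.3 and 73.8 in MPTP replicates 1 to 3, and 73.1, 59.4 and 76.3 in vehicle replicates 1 to 3. In each group it was lower in replicate 2 than in replicate 3. The next genes of the list by level, Gsk3b and Tnfrsf19, were not so in every group. Gsk3b was at 22 and 20.6 FPKM in vehicle replicates 2 and 3, and Tnfrsf19 at 14.5 and 11.2 FPKM in MPTP replicates 2 and 3. Of 24 paralogs and partners of the markers 22 were tested and 0 passed in any comparison (limma, 0 at an unadjusted p under 0.05 in all 3). Prkce, a further member of the protein kinase C family, averaged 40.2 FPKM over 9 libraries, and Rgs4, a further regulator of G protein signals, 83.7 FPKM. Rgs4 lay between 63.2 and 120 FPKM, with its highest value in MPTP replicate 2, where Rgs16 was low.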

How the data were processed

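The members and gene lists were chosen with earlier results of these data known. The authors deposited FPKM per gene, which were used as given; per the submitters' processing notes the tools were bcl2fastq, HTSeq and DESeq2, without versions, on GRCm38. No source used here gives the aligner, the FPKM tool, the strand setting or the depth. At best 48.5% to 51.4% of low values were whole multiples of 1 step, within 2%, so depth was not recovered and is unknown. Of the 55335 IDs, 55154 had a symbol in GENCODE M21.

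Genes averaging 0.5 FPKM or more entered 1 limma fit (mean-variance trend allowed) of log2(FPKM + 1), over 9 libraries and 3 groups, with 3 contrasts, two-sided p and Benjamini-Hochberg adjustment over all 15997 genes at a threshold of 0.05. Fold changes are on that scale and understate those of low genes. The fit was tested on simulated data with independent normal noise for each gene. That simulation does not cover variation that genes share across libraries. Since no label says that libraries are separate mice, p-values cover only the spread among them, which may be technical. Named genes are the 10 members, up to 3 genes of highest level per list, defining markers of the tissue and the 6 genes most like the members. Pitx3, Pou4f1, Chrna3 and Chrnb4 were added after their values were seen. Replicate numbers carry no stated meaning. The deviations from group means of same-numbered MPTP and vehicle libraries correlated over all genes (r = 0.25, 0.33 and 0.11). Of the different-numbered ones, MPTP replicate 3 with vehicle replicate 1 gave 0.17 and the others -0.35 to 0.08. Pairing these libraries by number is therefore an assumption, which no label states. Same-numbered pairs of a running with an MPTP library gave -0.34, -0.13 and 0.25, and those with a vehicle library -0.26, 0.01 and 0.24. Running replicate 2 gave 0.40 with MPTP replicate 1 and 0.35 with vehicle replicate 1. These correlations gave running libraries no steady pairing by number, and with 3 libraries a group they cannot exclude one. The block fits used the number. The alternatives were 19 settings of scale, filter, weights, model, block and libraries. No protein sequences were used here, and some genes of the lists are not reported here. Software was R 4.3.3, limma 3.58.1, Python 3.11.15, pandas 2.3.3, numpy 2.4.6 and matplotlib 3.10.9.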

Additional observations from a re-analysis of the deposited data

How the results depend on the processing

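Under all 19 alternatives and in all 3 comparisons the number of thalamic markers past the threshold was 0, and the smallest adjusted p of a marker was 0.761 for MPTP against vehicle, 0.646 for running against MPTP and 0.516 for running against vehicle (limma). A replicate block cannot move fold changes in this balanced design, only their errors. Over all 9 libraries it called 0 markers and 3, 0 and 0 of all genes. For MPTP against vehicle the fit of these groups alone called 0 genes with the block and 0 without it, against 2 in the unblocked fit of 9 libraries. The block changed no call on a marker. For running mice the correlations above showed no steady pairing by number and cannot exclude one. At an unadjusted p under 0.05 the block of 9 libraries gave 0, 0 and 1 of 10 markers, beside 4.49%, 4.20% and 6.78% of all genes, and the block within the groups compared gave 1, 1 and 5 of 10, beside 5.72%, 3.20% and 6.53%, with adjusted p of 0.725 or more for running against vehicle. Leaving out 1 library at a time moved the count of all genes called for MPTP against vehicle between 0 and 32, for running against MPTP between 0 and 25, and for running against vehicle between 0 and 2, and the cause was not tested. The highest counts of the first 2 comparisons came without MPTP replicate 1. For running against MPTP the count was 3 with no filter and 1 both with FPKM rescaled to the same sum and with array weights. Only 10 of the 19 settings can move a fold change in a given comparison; of the 100 refits of a marker under these, 3, 22 and 12 turned sign. Log2 fold changes that turned over the 9 fits without 1 library ranged as follows. For MPTP against vehicle they were Tcf7l2 -1.39 to 0.08, Lef1 -0.64 to 0.03, Synpo2 -0.44 to 0.02. For running against MPTP they were Prkcd -0.35 to 1.45, Ramp3 -0.46 to 0.91, Rgs16 -0.42 to 0.87, Tnnt1 -0.63 to 0.74, Lef1 -0.45 to 0.10, Slitrk6 -0.38 to 0.72, Calb2 -0.20 to 0.37, Tcf7l2 -1.30 to 0.30. For running against vehicle they were Prkcd -1.89 to 0.14, Ramp3 -1.41 to 0.07, Tnnt1 -1.46 to 0.06, Synpo2 -0.23 to 0.25, Slitrk6 -1.14 to 0.01. Quantile normalization turned Tnnt1 to 0.01 in running against MPTP and Synpo2 to 0.03 in running against vehicle. Array weights turned Tnnt1 to 0.25 and Calb2 to -0.15 in running against MPTP, and Prkcd to 0.22, Tnnt1 to 0.01 and Synpo2 to 0.05 in running against vehicle. None of these values passed the threshold in either sign. With array weights the medians were -0.18, 0.15 and -0.07, and with FPKM rescaled to the same sum -0.67, 0.08 and -0.66. With 3 libraries a group and spreads of this size, the data bound the group differences of the most variable markers only loosely.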

Other observations

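Markers of 2 further regions near the thalamus stood out in single libraries. Gpr151, a receptor of habenular neurons, was at 4.08, 0.151 and 0.631 FPKM in running replicates 1 to 3, 0.12, 0.22 and 4.93 in MPTP replicates 1 to 3, and 0.742, 0.294 and 1.66 in vehicle replicates 1 to 3. It was thus highest in MPTP replicate 3 and running replicate 1, both high for Prkcd, but low in vehicle replicate 1, the highest for Prkcd. Tac2 was highest in the same 2 libraries, at 5.52 FPKM in MPTP replicate 3 and 4.02 FPKM in running replicate 1. In vehicle replicate 1 Tac2 was at 0.413 FPKM. Chrnb4 had the same 2 highest libraries, at 1.24 and 0.681 FPKM, and Chrna3 was highest in MPTP replicate 3, at 1.61 FPKM. Lrrc55, of the highest level, was highest in vehicle replicate 3, at 6.64 FPKM, with 5.87 and 5.68 FPKM in MPTP replicate 3 and running replicate 1. Pou4f1, a transcription factor chosen after its values were seen, was highest in running replicate 2, at 3.33 FPKM. Pmch and Hcrt, neuropeptides of the lateral hypothalamus, were at 66.2 and 14.4 FPKM in vehicle replicate 3, and Pmch was at most 4.37 FPKM in the other 8 libraries, where Hcrt was at most 0.219 FPKM. No other gene of the hypothalamic list had its highest level in vehicle replicate 3. Trh, the second of the list in level, was at 8.98 FPKM in running replicate 2 and 8.69 FPKM in vehicle replicate 3. The 6 habenular genes summed to 5.76 to 15.9 FPKM in running mice, 6.70 to 20.0 FPKM in MPTP mice and 6.78 to 12.2 FPKM in vehicle mice. None of the 5 habenular and 5 hypothalamic genes tested passed in any comparison (limma, 0 at an unadjusted p under 0.05).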
